A study of Mus musculus with 18 samples.

Results

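The genes described here are the opioid peptide precursors and opioid receptors of the mouse, 9 genes of the 55573 in the count table. They are Penk, Pdyn, Pomc and Pnoc, which encode the precursors of the opioid peptide family. Oprm1, Oprd1, Oprk1 and Oprl1 encode the receptors, and A830012C17Rik is a non-coding transcript annotated on the opposite strand of Penk. Of these, Penk, A830012C17Rik and Pdyn were chosen by their measured difference between males and females in these libraries, and the others complete the family by symbol. All 9 genes had counts in every library and passed the filter on low counts.

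The samples were taken from 18 C57BL/6J mice, 8 to 12 weeks old, which all received 2% formalin in a hind paw. The ipsilateral dorsal horn of the spinal cord (DHSC, lumbar segments L3 to L5) was collected 2 h later for RNA-Seq. There were 6 Male, 6 F1/Proestrus and 6 F2/Metestrus samples, the F1 and F2 names standing for the types of pain behavior that females displayed and the second name for the stage of the estrus cycle read from a vaginal smear. Naive or vehicle-injected animals were not analysed here, so every value below is a level after formalin and none is a response to it. Behavior type and cycle stage came together in the female groups and cannot be told apart.

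Opioid peptides are cut from large precursor proteins in neurons. Proenkephalin (Penk) gives the enkephalins, which act mainly on the delta and mu receptors. Prodynorphin (Pdyn) gives the dynorphins, which act mainly on the kappa receptor. Pro-opiomelanocortin (Pomc) gives beta-endorphin together with the melanocortins, and prepronociceptin (Pnoc) gives nociceptin, the ligand of the Oprl1 receptor. The receptors couple to inhibitory G proteins, which close calcium channels, open potassium channels and lower cyclic AMP. In the dorsal horn, enkephalin and dynorphin neurons lie in the superficial laminae where nociceptive fibers end, and the mu receptor sits on those fibers as well as on dorsal horn neurons.

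Promoter sequence was read for the members that the RefSeq promoter table (GRCm38.p6) held, which were 5 of the 9: Pdyn, Pomc, Oprm1, Oprd1 and Oprl1. Penk, A830012C17Rik, Pnoc and Oprk1 had no entry. The 3 windows below are the 250 bases before an annotated start, 5′ to 3′ on the strand of the gene. They are shown to set a precursor with higher values in males (Pdyn) beside a precursor of very low level (Pomc) and the receptor with the highest and most even level (Oprl1). Capitals mark a match to 1 of the motifs searched, on either strand.
Pdyn, chr2:129699939-129700188, minus strand: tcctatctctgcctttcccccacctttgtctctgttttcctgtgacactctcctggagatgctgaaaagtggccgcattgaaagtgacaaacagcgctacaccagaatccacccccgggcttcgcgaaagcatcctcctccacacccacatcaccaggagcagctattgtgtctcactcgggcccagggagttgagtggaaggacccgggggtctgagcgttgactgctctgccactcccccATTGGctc
Pomc, chr12:3954695-3954944, plus strand: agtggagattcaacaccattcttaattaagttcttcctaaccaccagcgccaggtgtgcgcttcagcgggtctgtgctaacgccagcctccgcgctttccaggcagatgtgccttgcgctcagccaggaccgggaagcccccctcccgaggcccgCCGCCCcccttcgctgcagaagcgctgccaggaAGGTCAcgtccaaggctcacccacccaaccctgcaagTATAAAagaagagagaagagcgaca
Oprl1, chr2:181714766-181715015, plus strand: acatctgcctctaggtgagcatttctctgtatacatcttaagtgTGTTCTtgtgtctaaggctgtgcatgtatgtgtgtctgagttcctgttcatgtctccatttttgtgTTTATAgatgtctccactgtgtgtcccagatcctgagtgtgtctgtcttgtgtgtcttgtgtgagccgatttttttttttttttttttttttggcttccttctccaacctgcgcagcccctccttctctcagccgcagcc

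There were 8 motifs searched, each on both strands. They were TGACGTCA, the cyclic AMP response element, with its first part TGACG, and the AP-1 site TGANTCA. They were further AGGTCA, a half-site of the estrogen receptor, and AGAACA, a half-site of the androgen and glucocorticoid receptors. The core elements searched were CCAAT (the NF-Y site), TATAAA (the TATA box) and GGGCGG (the GC box). TGACG lies within TGACGTCA, and no other motif lies within another. The Pdyn window held CCAAT on the other strand, found in 33.8% of the 32851 windows of this length in the table. The Pomc window held AGGTCA (14% of all windows), TATAAA (12.4%) and GGGCGG on the other strand (32.7%). The Oprl1 window held AGAACA (16.1%) and TATAAA, both on the other strand. Oprl1 had 3 windows and Pdyn 2, and window 1 is shown for each. Window 2 of Oprl1 held none of the motifs, and its window 3 held AGAACA without TATAAA. Window 2 of Pdyn held CCAAT as well. TGACGTCA, TGACG and TGANTCA were found in no window of these 5 genes. These are matches of letters, and no binding was measured.

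Levels per length could be compared between genes only as RPKM, here the counts scaled to library size by TMM (CPM) per kilobase of the joined exons of each gene in GENCODE vM21 (GRCm38). Penk stood far above the others at 219 ± 57.3 RPKM (SD, n = 18 over the 3 groups), which placed it above 99.3% of the 24849 genes compared. Genes compared were those of the 55573 that passed the filter on low counts and had an annotated length. Oprl1 came next at 27.99 ± 1.29 RPKM. Pdyn followed at 17.5 ± 3.06 RPKM and A830012C17Rik at 11.6 ± 3.01 RPKM. Pnoc came next at 8.09 ± 1.49 RPKM. The level of the nociceptin receptor was thus above that of its ligand precursor.

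The classical receptors and Pomc were at the low end. Oprd1 was at 2.06 ± 0.254 RPKM, Oprk1 at 1.097 ± 0.155 RPKM, Pomc at 0.887 ± 0.197 RPKM and Oprm1 at 0.351 ± 0.0527 RPKM (SD, n = 18). These levels were above that of 46.4%, 36.8%, 33.7% and 22.1% of the genes compared. Neighbours in this order did not always separate: the ranges of Pdyn and A830012C17Rik, of A830012C17Rik and Pnoc, of Oprd1 and Oprk1, and of Oprk1 and Pomc overlapped over the 18 libraries. Oprk1 was above Pomc in 15 of the 18 libraries, and each other gene was above the next in all 18. The low end of the order depended on the length used. Over the longest transcript, Oprk1 reached 2.15 ± 0.304 RPKM, beside 2.06 for Oprd1, and Oprm1 reached 1.17 ± 0.175 RPKM, beside 1.121 ± 0.249 for Pomc. Oprm1 has 31 annotated transcripts, and 8037 bases of joined exons against 2420 for the longest of them.

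**Figure D1:**
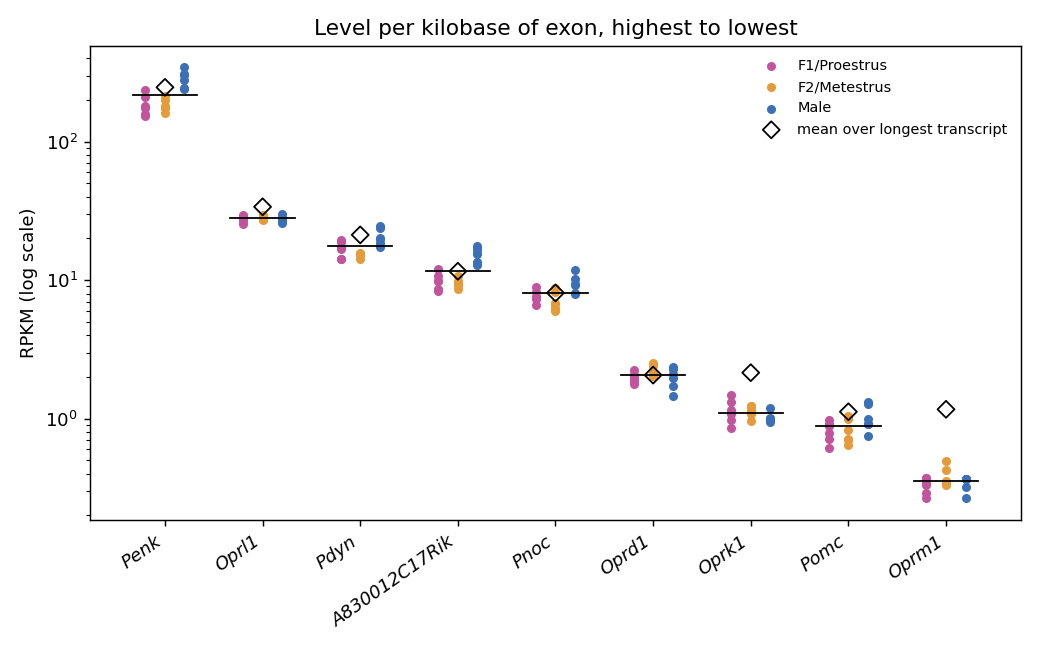
Level of each gene per kilobase of exon (RPKM, log scale), from the highest to the lowest. Points are libraries colored by group, lines are means over the 18 libraries for the joined exons, and diamonds are means for the longest transcript; Penk lies at a mean of 219 RPKM and Oprm1 at 0.351, or 1.17 over its longest transcript.

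Penk was the precursor with the widest gap between the sexes. In F1/proestrus females, Penk values were 251 CPM at the lowest, 292 at the median and 383 at the highest. In F2/metestrus females they were 264, 292 and 348 CPM. In males they were 394, 477 and 562 CPM, so that all 6 males lay above all 12 females. Mean levels were 469 ± 64.6 CPM in males (SD, n = 6) and 302 ± 39.5 CPM in females (n = 12). The fitted difference, male minus female, was 0.63 ± 0.08 (log2, SE), a fold of 1.55 with a 95% interval from 1.37 to 1.75. Because Penk, A830012C17Rik and Pdyn are on the list for this contrast, the values between the sexes are a description for all 9 genes and carry no p-value.

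A830012C17Rik followed Penk across the libraries. Its values ran from 13.8 CPM at the lowest through 16.3 at the median to 20.1 at the highest in F1/proestrus, and from 14.3 through 15.7 to 17.97 CPM in F2/metestrus. In males they ran from 21.5 through 25.9 to 29.4 CPM, again with all males above all females. The fitted difference was 0.66 ± 0.08 (log2, SE), a fold of 1.58 (95% interval 1.41 to 1.76). Counts of A830012C17Rik amounted to 5.45% ± 0.184 of the Penk counts in F1/proestrus, 5.30% ± 0.157 in F2/metestrus and 5.47% ± 0.508 in males (SD, n = 6 each). Over the 18 libraries this share kept between 4.99% and 6.41%.

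The annotation bears on how these counts can be read. Penk lies on chromosome 4 from 4133531 to 4138819 on the minus strand and A830012C17Rik from 4138321 to 4188703 on the plus strand. They overlap by 499 bases at the start of Penk, of which 233 bases are exon in both genes. A further 157 bases of the first A830012C17Rik exon lie in the Penk intron, and its second exon lies 48718 bases farther on. The library kit in the labels does not mark strand and the strand setting of the counting is not stated, so reads from Penk and A830012C17Rik cannot be told apart in the shared bases. The values of A830012C17Rik are therefore uncertain and are no second measurement of the difference seen for Penk.

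**Figure D2:**
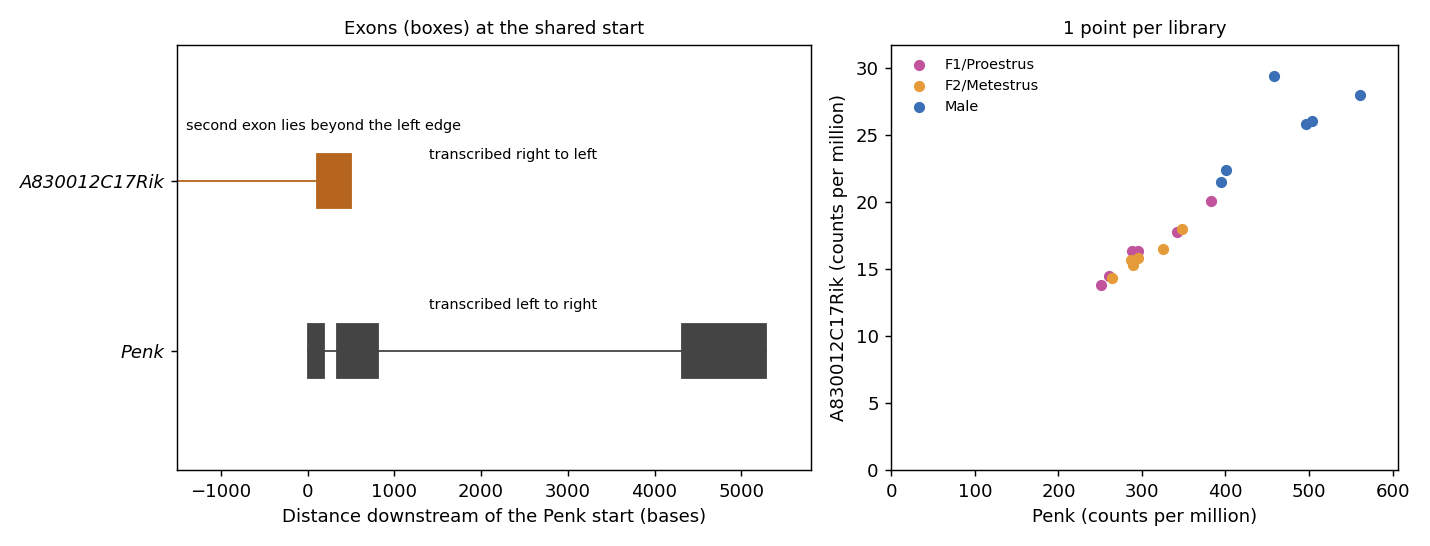
Left, exons of Penk and A830012C17Rik by distance in bases from the Penk start; the first A830012C17Rik exon lies over the first Penk intron and parts of its neighbouring exons. Right, CPM of A830012C17Rik against CPM of Penk, 1 point per library colored by group; the 6 males lie between 394 and 562 CPM of Penk and above 21 CPM of A830012C17Rik.

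Pdyn, the dynorphin precursor, showed a smaller gap. Its values were 41.1 CPM at the lowest, 49.1 at the median and 56.1 at the highest in F1/proestrus. In F2/metestrus they were 40.9, 44.5 and 45.03 CPM. In males they were 49.9, 57.5 and 70.6 CPM. All 6 males were above the median of the females, but Male replicates 1 (49.9 CPM) and 6 (53.8 CPM) lay within the range of the F1/proestrus females. The fitted difference was 0.37 ± 0.08 (log2, SE), a fold of 1.29 (95% interval 1.15 to 1.44). Pdyn counts were 16.1% ± 1.41 of the Penk counts in F1/proestrus, 14.7% ± 1.37 in F2/metestrus and 12.8% ± 1.29 in males (SD, n = 6 each).

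Pnoc, the nociceptin precursor, went from 14.2 CPM through 16.3 to 19.2 CPM in F1/proestrus and from 12.9 through 14.6 to 19.0 CPM in F2/metestrus. In males it went from 17.1 through 20.01 to 25.6 CPM. The groups overlapped, with 6 of 6 males above the median of the females. The fitted difference was 0.35 ± 0.09 (log2, SE; fold 1.27, 95% interval 1.115 to 1.45).

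Pomc had few counts, 78 to 200 per library. Its values were 0.802 CPM at the lowest, 1.103 at the median and 1.28 at the highest in F1/proestrus, and 0.855, 1.01 and 1.38 CPM in F2/metestrus. In males they were 0.982, 1.26 and 1.74 CPM, overlapping both female groups. The fitted difference was 0.32 ± 0.14 (log2, SE; fold 1.252, 95% interval 1.03 to 1.53). The pituitary markers Prl, Gh, Pou1f1 and Tbx19 together summed to at most 0.0881 CPM in any library.

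The receptors did not share this pattern. Oprm1, the mu receptor, ranged from 2.15 to 2.98 CPM in F1/proestrus with a median of 2.74, from 2.67 to 3.96 CPM in F2/metestrus with a median of 2.84, and from 2.14 to 2.96 CPM in males with a median of 2.93. Its difference between the sexes was -0.06 ± 0.11 (log2, SE), a fold of 0.960 with a 95% interval from 0.820 to 1.123. Its counts need care, since 96 bases of exon are shared with Ipcef1 on the opposite strand, a gene with 617 to 1762 counts per library.

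Oprd1, the delta receptor, ranged from 7.16 to 9.02 CPM in F1/proestrus (median 8.10), from 8.14 to 10.1 CPM in F2/metestrus (median 8.51) and from 5.89 to 9.55 CPM in males (median 8.16). The lowest values were those of males, but the groups overlapped. The difference was -0.08 ± 0.09 (log2, SE), a fold of 0.944 (95% interval 0.829 to 1.07).

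Oprk1, the kappa receptor, ranged from 7.80 to 13.6 CPM in F1/proestrus (median 10.2), from 8.73 to 11.3 CPM in F2/metestrus (median 10.4) and from 8.61 to 10.9 CPM in males (median 9.10). Only 1 of the 6 males lay above the median of the females. The difference was -0.16 ± 0.09 (log2, SE), a fold of 0.897 (95% interval 0.786 to 1.03).

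Oprl1, the nociceptin receptor, varied least, with 96.2 to 111 CPM in F1/proestrus (median 106), 102 to 112 CPM in F2/metestrus (median 106) and 96.9 to 113 CPM in males (median 104). Its coefficient of variation over the 18 libraries was 4.59%, against 26.2% for Penk and 17.5% for Pdyn. The difference between the sexes was -0.02 ± 0.04 (log2, SE), with a 95% interval from a fold of 0.930 to 1.04.

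**Figure D3:**
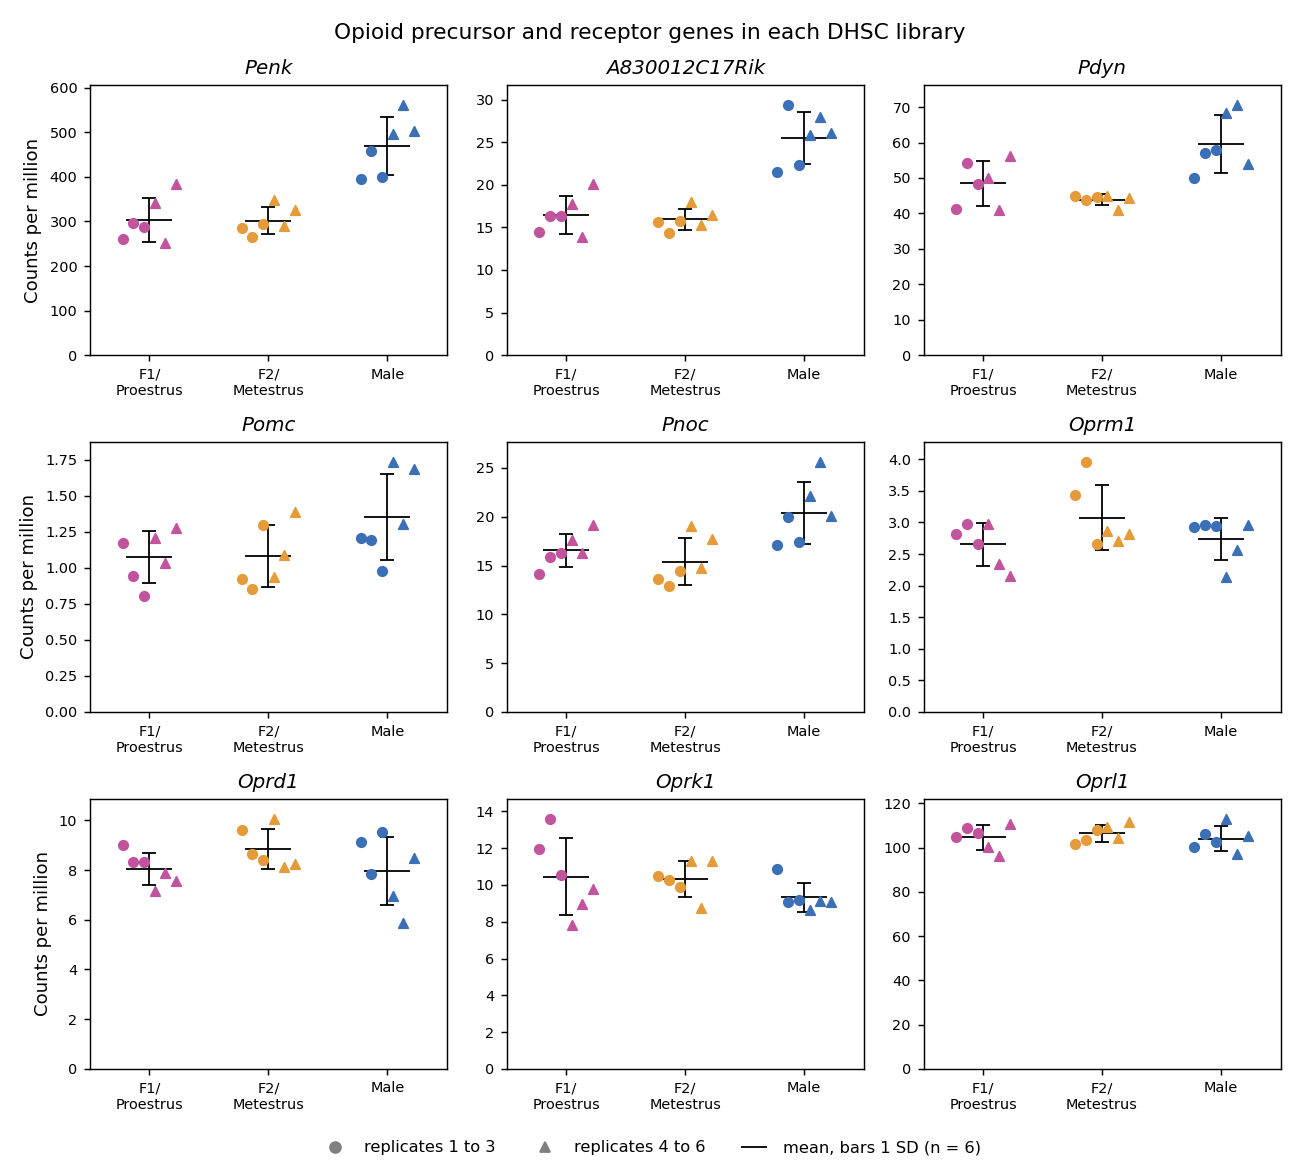
CPM of each gene in every library, by group, with circles for replicates 1 to 3, triangles for replicates 4 to 6, and the mean with bars of 1 SD (n = 6). The 6 males lie above all 12 females for Penk and A830012C17Rik, and the groups overlap for the other 7 genes.

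Between males and females, 5 of the 9 genes had higher fitted values in males, namely the 4 precursors and A830012C17Rik, and the 4 receptors had lower ones. The median difference over the 9 genes was 0.32 (log2), beside a median of -0.0013 over the 24862 genes tested. With edgeR and a false discovery rate (FDR) of 5%, 2 of the 9 genes (Penk and A830012C17Rik) were called higher in males, where 0.149% of all genes tested were called in that direction and 0.197% in either. The same 2 genes had males that did not overlap with females, which held for 0.0724% of all genes in that direction. With the library series as a covariate, 4 of the 9 were called, Pdyn and Pnoc being added at 0.36 ± 0.08 and 0.35 ± 0.07 (log2, SE), where 0.539% of all genes were called in either direction. Since the genes were listed with this contrast in view, nothing is read from these shares.

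The gap was compared with each female group and within each series of replicates, because the library numbers formed 2 series, 27 to 35 for replicates 1 to 3 and 188 to 196 for replicates 4 to 6. Penk was higher in males by 0.62 ± 0.11 (log2, SE) against F1/proestrus alone and by 0.63 ± 0.09 against F2/metestrus alone. Within replicates 1 to 3 the difference was 0.55 ± 0.05, and within replicates 4 to 6 it was 0.69 ± 0.11. For A830012C17Rik these 4 differences lay between 0.62 and 0.67. All of these splits reuse the libraries by whose difference Penk, A830012C17Rik and Pdyn were chosen. Their likeness is a description and no replication.

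Pdyn moved more between these splits. Its difference was 0.29 ± 0.10 (log2, SE) against F1/proestrus and 0.43 ± 0.08 against F2/metestrus, and it was 0.24 ± 0.08 within replicates 1 to 3 and 0.48 ± 0.11 within replicates 4 to 6. Pnoc was at 0.30 ± 0.08 and 0.38 ± 0.10 within the series, and Pomc at 0.16 ± 0.18 and 0.45 ± 0.16. The change of the male difference between the series was tested as an interaction, which called no gene at 5% FDR by edgeR. For Pdyn the interaction was 0.22 ± 0.15 (log2, SE) and for Penk 0.12 ± 0.13, given as a description without a p-value. With 3 males in each series, the lack of a call cannot show that the difference was the same in both. Within either series the receptors stayed between -0.21 and 0.01.

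**Figure D4:**
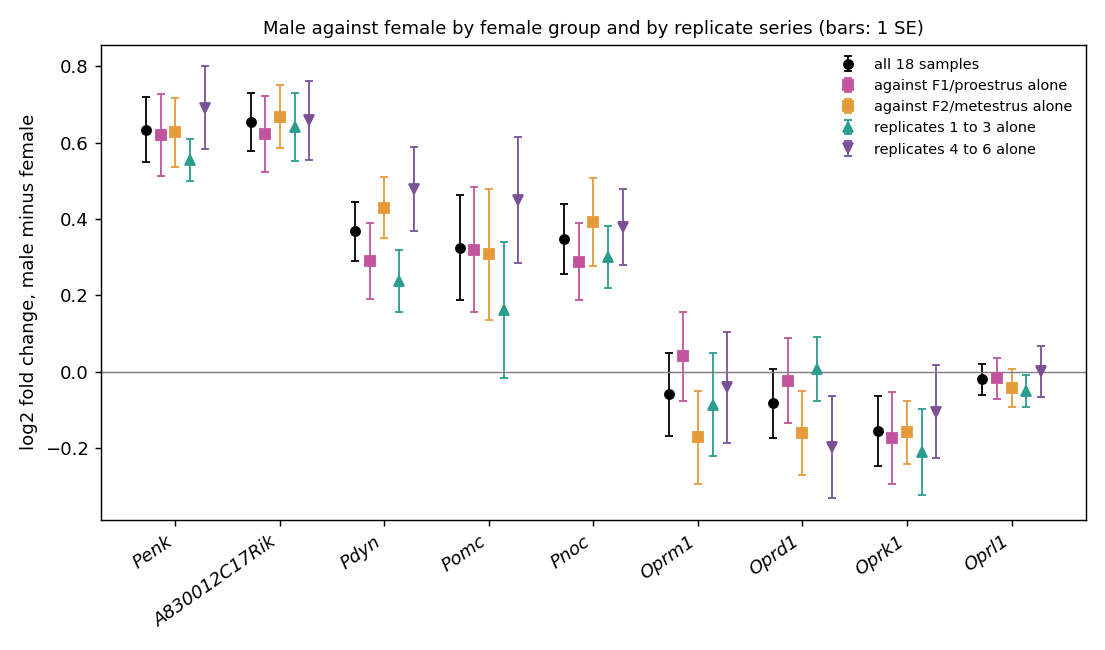
Fitted log2 difference, male minus female, for each gene with bars of 1 SE, in all 18 samples, against each female group alone, and within each series of replicates. Penk lies between 0.55 and 0.69 and A830012C17Rik between 0.62 and 0.67 in every split, whereas Pdyn moves from 0.24 to 0.48. The splits reuse the libraries by whose difference these genes were chosen.

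In bulk tissue a lower number of cells of a type and less RNA per cell cannot be told apart, so cell type markers are given beside these differences. The 10 markers of dorsal horn excitatory neurons were all expressed and summed to 582 to 708 CPM in males, 528 to 726 in F1/proestrus and 536 to 596 in F2/metestrus. None was called between the sexes (9 of 10 had higher fitted values in males, median 0.16). The 9 inhibitory markers summed to 723 to 915 CPM in males, 793 to 963 in F1/proestrus and 796 to 938 in F2/metestrus (0 called, median 0.05). The 8 markers of ventral horn and motor neurons were the most uneven of the spinal neurons, with 24.6 to 157 CPM in males, 37.4 to 183 in F1/proestrus and 129 to 171 in F2/metestrus (0 called, all 8 lower in males, median -0.50). The 4 Schwann cell markers summed to 1692 to 4273 CPM in males, 1197 to 2401 in F1/proestrus and 1239 to 1742 in F2/metestrus (0 called, all 4 higher in males, median 0.56). The part of the Schwann cell signal in the opioid values was not tested. The 6 microglial markers summed to 208 to 244 CPM in males, 197 to 229 in F1/proestrus and 208 to 235 in F2/metestrus (0 called, 5 of 6 higher in males, median 0.06).

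With the score of the excitatory markers as a covariate, a setting chosen after seeing the data, the Penk difference was 0.54 ± 0.07 (log2, SE), that of Pdyn 0.31 ± 0.08 and that of Pnoc 0.26 ± 0.08. With the score of the ventral markers these were 0.55 ± 0.08, 0.29 ± 0.07 and 0.28 ± 0.10. Scores of other cell types were not fitted. Such a score cannot tell cell number from RNA per cell, and the part of cell composition in these differences was not tested.

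Sensory ganglion markers stood apart in a single library. F1/Proestrus replicate 5 had 540 CPM summed over the 9 markers, against 3.84 to 7.27 CPM in the other 17 libraries. Its values were the lowest of its group for Penk (251 CPM), A830012C17Rik (13.8 CPM) and Oprl1 (96.2 CPM). For Pdyn it was level with F1/Proestrus replicate 1, both at 41.1 CPM. For Pnoc, Pomc, Oprm1, Oprd1 and Oprk1, F1/Proestrus replicate 5 was not the lowest. Without this library the Penk difference between the sexes was 0.61 ± 0.08 (log2, SE), A830012C17Rik was at 0.64 ± 0.08, and the other 7 genes moved by no more than their SE. The check of sex-linked genes matched the labels, with 5 of 5 called in the direction of the label.

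The comparison of F2/metestrus with F1/proestrus asks whether the opioid genes differ between the female groups, and uses values that did not choose the genes. None of the 9 genes was called in the fit of the 12 females (edgeR, adjusted p = 0.999982 for each), none had an unadjusted p under 0.05, and DESeq2 called none. No gene at all was called (0% of 24042 tested), 596 had an unadjusted p under 0.05, and DESeq2 called 2. The Penk difference, F2/metestrus minus F1/proestrus, was -0.01 ± 0.10 (log2, SE), with a 95% interval from a fold of 0.859 to 1.15. A830012C17Rik was at -0.05 ± 0.09.

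The other precursors were not called either, which does not show that their levels were equal. Pdyn was at -0.14 ± 0.08 (log2, SE; 95% interval from a fold of 0.807 to 1.01), with all 6 F2/metestrus samples below the F1/proestrus median. Pnoc was at -0.11 ± 0.10 and Pomc at 0.01 ± 0.16. The interval of Pomc ran from a fold of 0.794 to 1.27.

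Among the receptors, Oprm1 was at 0.21 ± 0.12 (log2, SE; 95% interval from a fold of 0.963 to 1.39) and Oprd1 at 0.14 ± 0.08 (0.977 to 1.24). Oprd1 was above the F1/proestrus median in 6 of 6 F2/metestrus samples, with ranges that overlapped. Oprl1 was at 0.02 ± 0.05 (0.948 to 1.09). Oprk1 was at -0.02 ± 0.12 (0.827 to 1.18), but this value joined -0.24 ± 0.11 within replicates 1 to 3 and 0.24 ± 0.14 within replicates 4 to 6. The difference between these values was 0.47 ± 0.18 (interaction in edgeR, adjusted p = 0.999987), and it did not pass the correction.

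**Figure D5:**
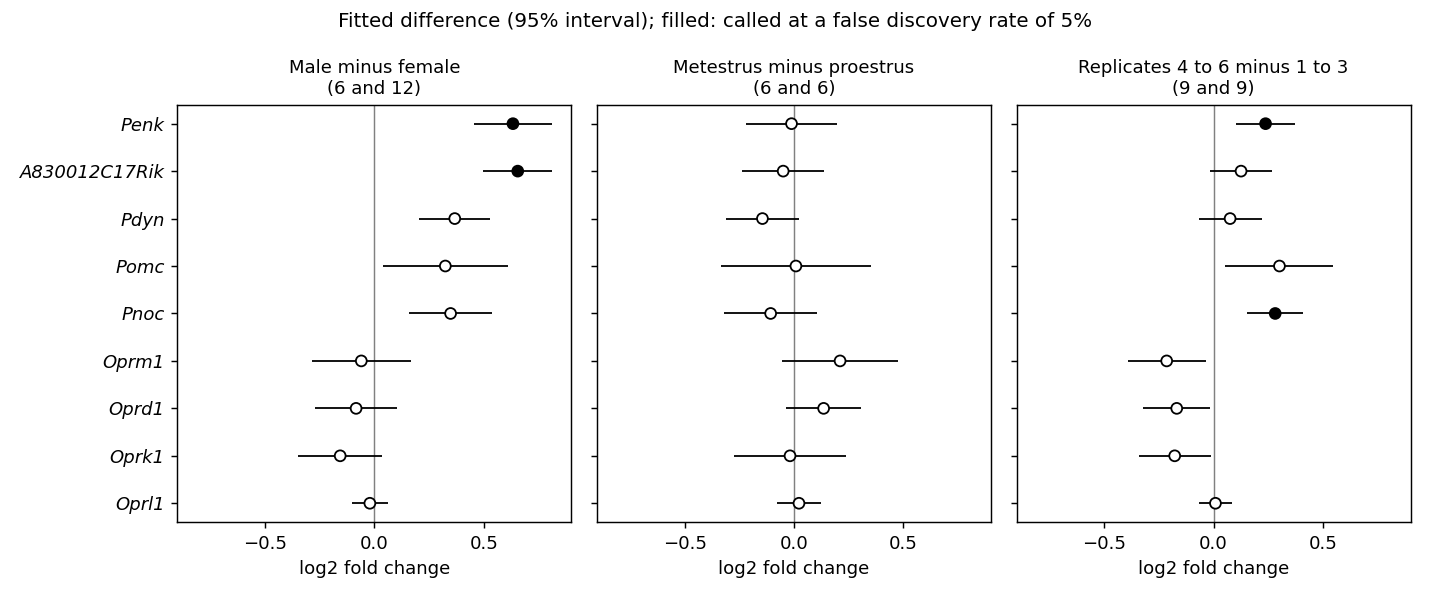
Fitted log2 difference and 95% interval of each gene in the 3 comparisons; filled points were called at 5% FDR by edgeR. Penk and A830012C17Rik are filled between the sexes, none is filled between the female groups, and Penk and Pnoc are filled between the 2 series.

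The 2 series of replicates were then compared with each other over the 18 samples, with group as a covariate. Pnoc was higher in replicates 4 to 6 by 0.28 ± 0.06 (log2, SE; fold 1.22; edgeR adjusted p = 0.00174), with 8 of 9 samples above the median of replicates 1 to 3. Penk was higher by 0.24 ± 0.06 (fold 1.18; adjusted p = 0.00917), with 7 of 9 samples above that median. These were 2 of the 9 genes, in a comparison that called 27% of all 24862 genes, 14% in this direction.

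The remaining genes did not pass between the series. Pomc was at 0.30 ± 0.12 (log2, SE; adjusted p = 0.0657), A830012C17Rik at 0.13 ± 0.07 (adjusted p = 0.192) and Pdyn at 0.08 ± 0.07 (adjusted p = 0.463). Oprm1 was at -0.21 ± 0.09 (adjusted p = 0.0694), Oprd1 at -0.17 ± 0.07 (adjusted p = 0.0953) and Oprk1 at -0.18 ± 0.08 (adjusted p = 0.104), and Oprl1 was at 0.01 ± 0.04 (adjusted p = 0.895). Penk lost its call in the 12 females alone (0.19 ± 0.08, adjusted p = 0.131) and in the 6 males alone (0.32 ± 0.08, adjusted p = 0.0627). Pnoc kept it in the females (0.26 ± 0.07, adjusted p = 0.0266) and lost it in the males (0.32 ± 0.11, adjusted p = 0.143). The dorsal horn excitatory markers moved with these values, 6 of 10 being called higher in replicates 4 to 6 (median 0.27), beside 14% of all genes. Other lists held such genes too. Of the inhibitory markers 3 of 9 were called higher and 1 lower, and of the microglial markers 3 of 6 higher and 1 lower. The part of these cell types in the result was not tested.

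The machinery around these genes was followed in lists of 73 genes, from processing of the precursors to regulation of the receptors. Between the sexes, 0 of 72 tested were called by edgeR (smallest adjusted p = 0.171) and 0 by DESeq2, with 7 at an unadjusted p under 0.05. Their median difference was 0.03 (log2). Between the female groups, 0 of 71 were called by either tool, with 3 at an unadjusted p under 0.05. Between the series, 28 of 72 were called, 15 higher and 13 lower in replicates 4 to 6, a share of 38.9% beside 27% of all genes.

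Precursor processing is done by the convertases and by the carboxypeptidase and amidating enzymes that trim the peptides. Of its 12 genes, none was called between the sexes, 8 having higher fitted values in males. Scg2, a granin stored with neuropeptides, was nearest to a call (0.16 ± 0.04, log2 and SE; edgeR adjusted p = 0.171). Between the series 6 of 12 rose and 2 fell in replicates 4 to 6. Pcsk1n, which encodes the convertase inhibitor proSAAS, rose by 0.53 ± 0.07 (adjusted p = 1.97e-05). Pcsk2, Cpe, Ctsl, Chga and Chgb rose by 0.11 to 0.28, whereas Cpd fell by 0.50 and the amidating enzyme Pam fell by 0.17.

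Among the 9 genes of peptide breakdown, which include neprilysin (Mme) and the aminopeptidases that cut enkephalin, none was called between the sexes or the female groups. Between the series Dpp3 rose by 0.15, and Ace fell by 0.25 and Lnpep by 0.28 on the log2 scale. Of the 8 G protein genes none was called between the sexes, and Gnai2, Gnaz and Gnb5 rose by 0.11 to 0.21 between the series.

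The 10 effector genes, namely potassium channels, calcium channels and adenylyl cyclases, had none called between the sexes. Adcy1 came nearest (0.23 ± 0.08, log2 and SE; edgeR adjusted p = 0.328). All 10 had lower fitted values in replicates 4 to 6 and 3 were called: Cacna1b, a calcium channel subunit inhibited by opioid receptors, fell by 0.56 ± 0.09 (adjusted p = 0.000119), Cacna1a fell by 0.26 and Kcnj3 by 0.21.

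Receptor regulation held 14 genes, mostly of kinases, arrestins and regulators of G protein signaling. Rgs9 was nearest to a call between the sexes (0.21 ± 0.06, log2 and SE; edgeR adjusted p = 0.212). Between the series Arrb2 rose by 0.25 and Rgs19 by 0.17, while Arrb1 fell by 0.35, Grk3 by 0.30 and Gprasp1 by 0.25. Of the 12 genes listed for transcription of the precursors, 10 had higher fitted values in males but none was called. Fosb was at 0.33 ± 0.19 and Fos at 0.08 ± 0.12. Between the series Jund rose by 0.40 and Kcnip3 by 0.20, and Creb1, Crebbp and Fosl2 fell by 0.23 to 0.37. Among the other receptors that bind opioid or related peptides, 7 of 8 were tested, and Ogfr alone was called, higher by 0.14 in replicates 4 to 6.

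The genes most like each member were taken by Pearson correlation of log2 CPM over the 18 libraries, among 17751 other genes with a mean of at least 1 CPM. Libraries share group, series and depth, so these values are a description. Grp, which encodes gastrin-releasing peptide of dorsal horn excitatory neurons, came first for both Penk (r = 0.971) and A830012C17Rik (r = 0.960). Within group and series, Grp still had r = 0.911 with Penk and 0.934 with A830012C17Rik. For Penk the others were Bok (r = 0.911) and C1qb (r = 0.904), which fell to 0.639 and 0.676 within group and series. For A830012C17Rik they were the Y-linked genes Uty (r = 0.906) and Eif2s3y (r = 0.902), which fell to 0.307 and 0.368.

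Pdyn was most like Cyp4f15 (r = 0.910), Scg2 (r = 0.902) and Casq1 (r = 0.883). Pnoc was most like Tmem114 (r = 0.944), the growth-associated Gap43 (r = 0.915) and Rp9 (r = 0.911). Pomc came closest to Hhex, Calr3 and Rab33a (r = 0.793 to 0.816). Among the receptors the highest values were lower than for Penk: Oprm1 with Slc6a11, Gna13 and Spice1 (0.776 to 0.792), Oprd1 with Gm43401, Dstyk and Acot2 (0.824 to 0.830), Oprk1 with Nexmif, Zfp790 and Mmp16 (0.814 to 0.840) and Oprl1 with Usp11, Kif6 and Abcf3 (0.773 to 0.801).

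Among the members themselves, correlations over all libraries were higher between precursors than between a precursor and a receptor, but this order did not hold within group and series. Penk had r = 0.892 with Pnoc (Spearman's rho = 0.868) and r = 0.868 with Pdyn (rho = 0.833). Within group and series these were 0.794 and 0.753. Pomc had r = 0.643 with Penk over all libraries but 0.113 within group and series. With Penk, the mu, delta and kappa receptors had r of -0.296, -0.473 and -0.404, and within group and series -0.0557, -0.254 and 0.195. Oprl1 had r = 0.0581 with Penk, 0.0860 with Pdyn and 0.242 with Pomc, and within group and series 0.474, 0.443 and 0.500. Pnoc had r = 0.0573 with its receptor Oprl1 and 0.279 within group and series, and Pdyn had r = -0.290 with its receptor Oprk1 and 0.140 within group and series.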

How the data were processed

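RNA-Seq counts of 18 ipsilateral DHSC samples were used, 6 per group from the labels. The authors deposited raw counts per gene, made with Subread (2.0.3 in the submitters' processing notes) and featureCounts on mm10. The strand setting is not given in the sources used here. The labels name a SMART-Seq v4 and Nextera XT preparation, the methods a TruSeq kit. A deposited table of the authors' DESeq2 comparison served for gene symbols only. Totals were 73590509 to 125724156 counts per sample, 3 counts standing for 0.0240 to 0.0407 CPM.

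Counts were filtered with filterByExpr (minimum count 10, minimum total 15), TMM-normalized and fitted over all genes with edgeR 4.0.16 in R 4.3.3 (quasi-likelihood test, Benjamini-Hochberg, FDR of 5%), which also gave SE and 95% intervals. The methods name DESeq2, run here as an alternative (1.42.0) beside limma voom (3.58.1), other filters and omitted samples. Males were compared with the 12 females as one condition. Scripts were tested on simulated data. Log2 CPM used a prior count of 2. Ece2, whose symbol had 2 IDs, was left out of the lists. P-values weigh a difference against the spread between these samples. Genes were named by rule: the 9 members, the 3 genes most like each, and list genes called in any comparison. Scg2, Adcy1, Rgs9, Fos and Fosb were named after their values were seen. Members and lists were chosen with earlier results of these data known.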

Additional observations from a re-analysis of the deposited data

Results flagged for a closer look

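In each group of 6 samples, the highest and lowest value of each of the 9 genes was set against its neighbours with Dixon's test at 95%. In the 27 groups looked at, 2 values stood apart, where chance alone flags about 1 in 20 groups. Pdyn in F2/Metestrus replicate 5 was low at 40.9 CPM, against 43.7 to 45.03 CPM in the other 5 samples of a narrow group. Oprk1 in Male replicate 1 was high at 10.9 CPM, against 8.61 to 9.19 CPM in the other 5 males. Without this male, the Oprk1 difference, male minus female, was -0.22 (log2) in place of -0.16.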

How the results depend on the processing

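Between the sexes, Penk kept a difference of 0.54 to 0.69 and A830012C17Rik of 0.59 to 0.69 (log2) over the reported fit and 32 alternatives. Because this contrast chose Penk, A830012C17Rik and Pdyn, these ranges and the calls below describe the fits and give the difference no support. The number of the 9 genes called, 2 as reported, became 4 with the library series as a covariate and 4 with a replicate block (Pdyn and Pnoc added in both), 1 against F1/proestrus alone (A830012C17Rik), and 0 within replicates 4 to 6 alone. With DESeq2, no filter on low counts or 1 fit of the 3 groups it was 3, Pdyn being added. Omitting a sample gave 2 to 3, Pdyn being added without F1/Proestrus replicate 2, F1/Proestrus replicate 6 or Male replicate 1. Some receptors changed sign around 0. Oprm1 was at 0.040 against F1/proestrus alone and at 0.015 with the excitatory score. Oprd1 was at 0.0065 within replicates 1 to 3 and Oprl1 at 0.00093 within replicates 4 to 6. Over all genes 49 were called, 25 without Male replicate 5, 77 without F1/Proestrus replicate 5, 166 with DESeq2, 31 with at least 10 counts in every sample, 134 with series, 148 with the block, 13 and 22 against F1/proestrus and F2/metestrus alone, 16 and 13 within replicates 1 to 3 and 4 to 6, and 30 and 27 with the excitatory and ventral scores. Deviations of same-numbered samples had correlations of -0.105 to 0.228 in 18 pairs, 9 above 0.1 and 5 best with their own number. Since not every pair was above 0.1, the numbers were not taken as pairs, and the block changed no call of a member in the female comparison.

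Between the female groups 0 genes of the 9 were called in any setting, and 5 changed sign. These changes lay around 0 except for Oprk1, which ran from -0.24 to 0.24 (log2) over the settings. Omitting a sample moved Penk from -0.058 to 0.067, A830012C17Rik from -0.093 to 0.016, Pomc from -0.073 to 0.068 and Oprk1 from -0.089 to 0.075. Oprl1 was at -0.040 within replicates 1 to 3. Pomc was at -0.043 and Oprk1 at 0.24 within replicates 4 to 6, and Oprk1 was at 0.015 with voom.

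Between the series 2 genes were called, 1 in the 12 females alone (Pnoc), 0 in the 6 males alone, 3 with DESeq2 (Pomc added) and 5 with voom (A830012C17Rik, Pomc and Oprd1 added). Omitting a sample gave 2 to 4. Pomc was added without F1/Proestrus replicate 1 or F2/Metestrus replicates 3 or 4, Oprm1 without F1/Proestrus replicate 4 or F2/Metestrus replicate 3, Oprd1 without F2/Metestrus replicate 4 and A830012C17Rik without F1/Proestrus replicate 5. Oprl1 was at -0.00056 with at least 10 counts in every sample, -0.0051 with no filter, -0.0064 in the females, and -0.014 to 0.030 without 1 sample. Pdyn was at -0.0037 in the females. Over all genes the count was 6709 in the reported fit, which was 27% of the 24862 tested. It was 7422 with DESeq2, 3932 in the females and 1198 in the males, and it is not given here for voom. Calls were thus frequent among all genes, and nothing particular to the opioid genes is read from the numbers of members called.

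Over the longest transcript the levels were 21.2 RPKM for Pdyn, 1.121 for Pomc, 1.17 for Oprm1, 2.15 for Oprk1 and 33.9 for Oprl1. Of the 3 genes most like a member, Spearman's correlation kept 1 for A830012C17Rik and Oprk1 and 0 for Oprm1, Oprd1 and Oprl1. Correlation within group and series kept 1 for A830012C17Rik, Oprm1 and Oprk1 and 0 for Penk, Pdyn, Pomc, Pnoc, Oprd1 and Oprl1. The cause of these changes was not tested, except that the subsets hold fewer samples and the longest transcript is shorter by construction. Pomc had the fewest counts, 78 to 200 per library, followed by Oprm1 with 158 to 412.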
